A study of Mus musculus with 9 samples.

Results

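Expression of 10 genes of glucose uptake and glycolysis was examined in the colons of mice with colitis-associated cancer: the glucose transporter Slc2a1, the hexokinases Hk1 and Hk2, the phosphofructokinases Pfkp and Pfkl, the pyruvate kinase Pkm, the lactate dehydrogenase Ldha, the lactate exporter Slc16a3, and the regulatory enzymes Pfkfb3 and Pdk1. The genes were chosen by name for their place in the pathway, and all 10 were found among the 21498 gene symbols measured. Glucose enters a cell through facilitative transporters, is trapped by hexokinase, is committed to glycolysis by phosphofructokinase, and becomes pyruvate, which is either oxidized in mitochondria or reduced to lactate and exported. Tumors and activated inflammatory cells are known for rapid glycolysis with lactate export even where oxygen is present. Normal colonocytes live mainly on butyrate, a short-chain fatty acid that monocarboxylate transporters take up from the lumen.

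RNA sequencing was done on the colon of 9 male ICR mice, an outbred stock, 5 weeks old at the start, with 3 mice in each of 3 groups sampled at the end of week 18. Control mice received neither carcinogen, nor DSS, nor antibody. Mice of both other groups received 1 intraperitoneal injection of 10 mg/kg azoxymethane (AOM), a colon carcinogen, and 3 cycles of dextran sulfate sodium (DSS), which injures the colon epithelium, at 2% for 7 days and then at 1.5% for 5 days in each later cycle. During the DSS cycles these mice were injected with 1.5 mg/kg of antibody, either negative control IgG (the AOM/DSS + IgG Ab group) or a polyclonal antibody against the inflammatory protein S100a9 (the AOM/DSS + anti-S100a9 Ab group). These groups are called IgG Ab and anti-S100a9 Ab from here on, and both carry AOM and DSS. The labels give the tissue as normal mucosa in Control and as adenocarcinoma in both AOM/DSS groups. The text of the study introduces the samples of all groups as mucosa. Elsewhere it speaks of adenocarcinoma tissue for IgG Ab and of mucosa for anti-S100a9 Ab, so the tissue may also differ between the AOM/DSS groups. A difference in the tissue taken cannot be told apart from the treatment. Values are FPKM, that is, fragments relative to the length of the transcript and to the depth of the library. In whole tissue, fewer cells of a type and less RNA per cell cannot be told apart.

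The FPKM totals ran from 308377 to 408811 per sample, samples of 1 group correlated with r between 0.963 and 0.987, and the shallowest sample had 0.762 of the depth of the deepest as estimated from the steps between low values. The absolute depth is unknown, and counting error is therefore not given. The 10 epithelial marker genes summed to between 4490 and 8180 FPKM in every sample, so colon epithelium was present in all 9. IgG Ab replicate 1 stood apart for these genes: 6 of the 10 (Slc2a1, Hk1, Pfkp, Pfkl, Ldha and Pdk1) had their lowest value of all 9 samples there, and 7 of 10 had their lowest of the IgG Ab group there, against 32.7% of all expressed genes. That share is for the lowest of the IgG Ab group. The share of all genes with their lowest of all 9 samples there was not computed, so the count of 6 has no background. The 8 smooth muscle markers of IgG Ab replicate 1 summed to 546 FPKM, against 1130 and 3330 in the other IgG Ab samples, 1880 to 2970 in Control and 2350 to 4230 in anti-S100a9 Ab. The sample also had the lowest sums of all 9 for markers of epithelium (4490), monocytes and macrophages (733), endothelium (19.0), skeletal muscle (1.0) and adipocytes (9.92). Its sums were the highest for squamous epithelium (51.1) and proliferation (93.0). The part of these differences in the results was not tested, and values without that sample are given below.

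In IgG Ab 3 of the 10 genes passed as higher than in Control: Slc16a3 by 9.48-fold, Hk2 by 2.46-fold and Pfkfb3 by 2.25-fold. Only the call of Slc16a3 held whichever sample was left out. The most abundant of the 10, Pkm and Ldha, did not pass the test. With anti-S100a9 Ab instead of IgG Ab, Slc16a3 was 0.194 times as high and was the only one of the 10 to pass. Between anti-S100a9 Ab and Control none of the 10 passed. Tests are limma's moderated test on log2(FPKM + 0.1), with Benjamini-Hochberg adjustment over 15278 genes and a threshold of 0.05 on the adjusted p.

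The share of all tested genes that passed is the background for these counts. It was 8.18% higher and 3.01% lower for IgG Ab against Control, 6.72% higher and 14.4% lower for anti-S100a9 Ab against IgG Ab, and 0.00655% in each direction for anti-S100a9 Ab against Control, where only 2 genes passed. The balance of directions over all genes depended on the scaling: IgG Ab against Control had 1250 genes higher and 460 lower with the values as deposited and 921 and 633 under upper-quartile scaling, and anti-S100a9 Ab against IgG Ab had 1026 and 2193, and 1333 and 1501. Of the 10, 3 passed as higher and 0 as lower in the first of these comparisons, and no gene that missed had an unadjusted p under 0.05. In the second comparison 0 passed as higher and 1 as lower, and Pkm and Pfkfb3 were also lower with an unadjusted p under 0.05. That made 3 of the 10 with an unadjusted p under 0.05 in each of these comparisons. Of all 15278 genes, 4507 had one in the first and 5978 in the second. In the third, 0 passed in either direction, 2 of the 10 (Slc16a3 and Hk2) had an unadjusted p under 0.05, and 2439 of all 15278 genes did. Counting genes whose samples did not overlap, IgG Ab was above Control for 4 of the 10 (20.7% of all genes tested) and below for 0 (10.2%). The anti-S100a9 Ab samples were above IgG Ab for 1 (18.5%) and below for 3 (28.5%), and above Control for 3 (17.3%) and below for 1 (13.7%). The comparisons share samples and are not independent. The median log2 fold change of the 10 was 0.10 against 0.09 for all genes in the first comparison, -0.15 against -0.06 in the second and 0.17 against 0.04 in the third. Of these counts the 3 genes higher in IgG Ab are the least stable: leaving out any 1 sample left between 1 and 2, and Slc16a3 was called each time.

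The upstream sequences of the 3 genes that rose, with Ldha, which did not pass, are shown because several glycolytic genes are known targets of the hypoxia-inducible factor, whose response element has the core ACGTG or GCGTG. Each stretch is the 250 bases before a transcript start in RefSeq (GRCm38.p6), written 5′ to 3′ on the strand of the gene, with the cores on either strand of the DNA (as ACGTG or GCGTG, or as the reverse complement) in capitals. Adjoining or overlapping cores are counted as 1 site. The Pfkfb3 stretch is the second listed for that gene, at a start shared by 10 annotated transcripts. The E-box CACGTG, a site for Myc and related factors, holds an ACGTG core on each strand.
Slc16a3 (chr11:120948817-120949066, plus strand): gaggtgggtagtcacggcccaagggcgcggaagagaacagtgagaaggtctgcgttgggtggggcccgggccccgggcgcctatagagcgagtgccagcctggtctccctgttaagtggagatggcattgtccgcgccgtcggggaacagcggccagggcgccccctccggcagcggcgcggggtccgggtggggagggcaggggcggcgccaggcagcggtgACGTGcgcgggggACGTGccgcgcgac
Hk2 (chr6:82774455-82774704, minus strand): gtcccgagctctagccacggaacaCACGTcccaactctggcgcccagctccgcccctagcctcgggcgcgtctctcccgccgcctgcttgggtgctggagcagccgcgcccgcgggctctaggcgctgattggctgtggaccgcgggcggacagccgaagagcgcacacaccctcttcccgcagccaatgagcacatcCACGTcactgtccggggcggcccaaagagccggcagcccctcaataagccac
Pfkfb3 (chr2:11502091-11502340, minus strand): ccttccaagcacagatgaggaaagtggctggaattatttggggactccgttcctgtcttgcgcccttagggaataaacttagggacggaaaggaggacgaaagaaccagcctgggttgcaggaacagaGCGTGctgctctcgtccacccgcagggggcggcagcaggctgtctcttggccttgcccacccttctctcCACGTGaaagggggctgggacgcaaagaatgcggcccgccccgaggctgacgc
Ldha (chr7:46845554-46845803, plus strand): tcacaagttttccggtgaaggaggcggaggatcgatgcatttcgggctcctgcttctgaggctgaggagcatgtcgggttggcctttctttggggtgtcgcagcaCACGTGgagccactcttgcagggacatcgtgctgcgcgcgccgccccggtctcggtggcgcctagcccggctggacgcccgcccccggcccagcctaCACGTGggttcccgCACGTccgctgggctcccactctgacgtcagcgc
The Slc16a3 stretch held 2 sites, both ACGTG, Hk2 held 2, Pfkfb3 held 2, of which 1 is an E-box, and Ldha held 3, of which 2 are E-boxes. The start of the Ldha stretch, the first listed for that gene, matched 0 GENCODE transcripts, and the second listed, which matched 1, held 1 site. The first listed stretch of Pfkfb3 held 1 site as well. The second listed stretches of Hk1 and Pkm held 2 sites and 1. Of the first-listed promoters of the 10 genes, 8 held at least 1 core, Hk1 and Pkm being the exceptions. Among 27025 mouse promoters of this length, 38.6% held 1, and among the 8607 with at least 13 CpG dinucleotides, a property of 9 of the 10, it was 66.9%. A match of these letters is not a binding site, and binding was not measured.

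**Figure D1:**
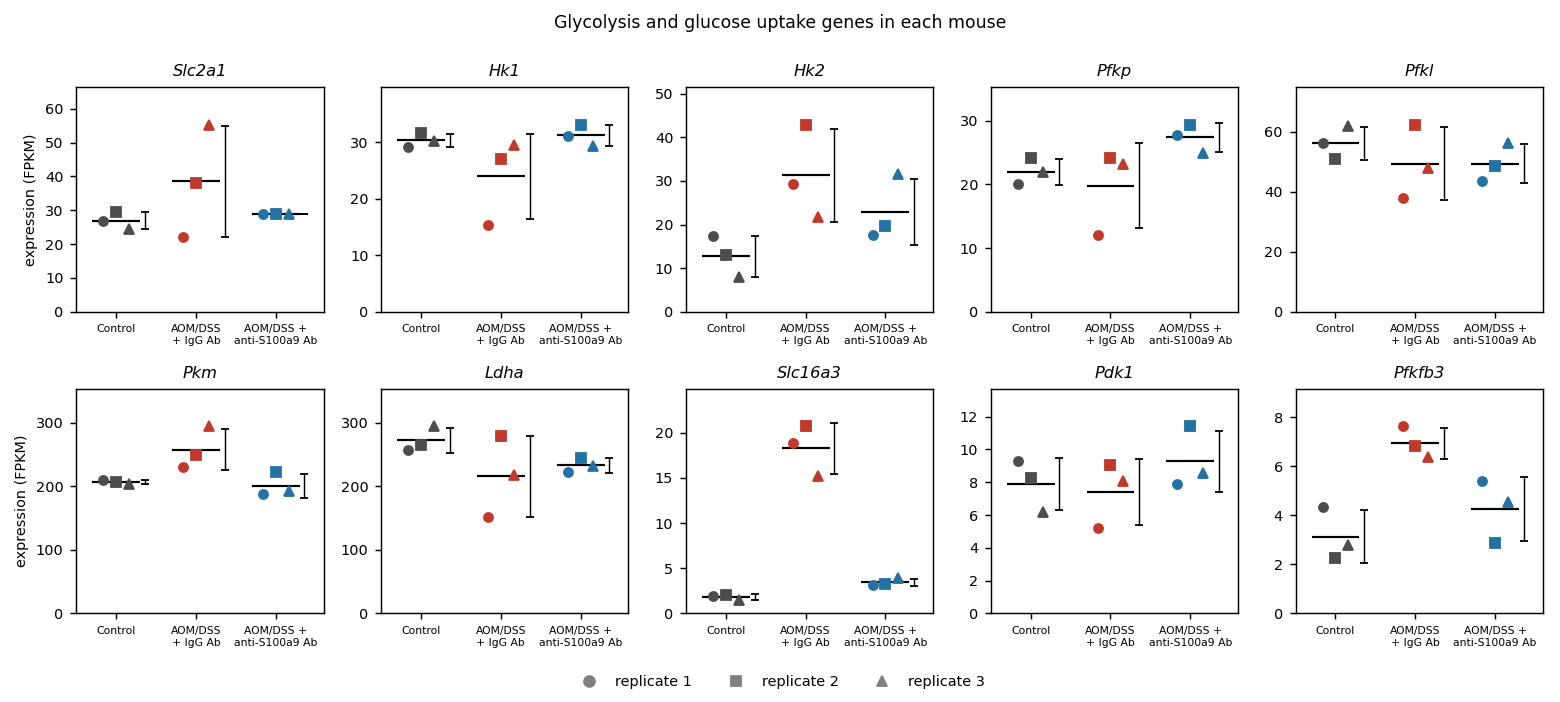
Expression (FPKM, linear axes from 0) of the 10 genes in each of the 9 mice, with a bar at the group mean, an error bar of 1 SD and marker shapes for replicates 1 to 3. Slc16a3 separates the groups completely, at 15.2 to 20.7 FPKM in IgG Ab against at most 3.89 in the other samples, while IgG Ab replicate 1 (red circle) is the lowest point for Slc2a1, Hk1, Pfkp, Pfkl, Ldha and Pdk1.

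Glucose uptake was represented by Slc2a1 (gene ID 20525, chromosome 4, 119108745 to 119137330), which encodes the basal glucose transporter GLUT1. Its expression was 26.7, 29.5 and 24.5 FPKM in the 3 Control mice, 22.2, 38.0 and 55.3 in IgG Ab replicates 1, 2 and 3, and 29.0, 28.8 and 28.8 in anti-S100a9 Ab. The IgG Ab samples spanned both the lowest and the highest value of the series, whereas the anti-S100a9 Ab samples were nearly the same. Slc2a1 was 1.34-fold higher in IgG Ab than in Control (log2 0.42, 95% CI -0.21 to 1.06, limma adjusted p = 0.34), a difference within the spread. Without IgG Ab replicate 1 it was 1.71-fold higher (log2 0.77 ± 0.17 SE, limma adjusted p = 0.036), and the anti-S100a9 Ab samples were then lower than IgG Ab (log2 -0.67 ± 0.17 SE, limma adjusted p = 0.049), so the call for this gene rests on whether that sample is kept. That sample was singled out partly by its low Slc2a1, so the values without it are a description and not a separate test. With all samples, the change with anti-S100a9 Ab was -0.32 (log2, limma adjusted p = 0.42).

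The genes whose pattern over the 9 samples was most like that of Slc2a1, by Pearson's r of the log2 values among 13084 genes, were Col6a3 (r = 0.974), Rasl10b (0.963), Col6a1 (0.946), Sprr2d (0.941) and Sprr2i (0.938). Col6a3 and Col6a1 encode chains of collagen VI, and the Sprr2 genes encode proteins of the cornified envelope of squamous epithelium. All 5 were highest in IgG Ab replicate 3, the sample with the highest Slc2a1, and the correlations are descriptions that rest largely on it. The 10 squamous epithelial markers summed to 51.1, 8.59 and 32.2 FPKM in IgG Ab replicates 1, 2 and 3, against at most 2.1 in Control and 3.71 in anti-S100a9 Ab. Their part in the Slc2a1 values was not tested.

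Slc2a1 made up 62.3% ± 3.35 (SD, n = 3) of the summed FPKM of the facilitative glucose transporters in IgG Ab, 52.6% ± 3.35 in Control and 51.7% ± 1.35 in anti-S100a9 Ab. Slc2a3, a transporter of high affinity known from neurons and leukocytes, stayed between 1.24 and 2.64 FPKM. Of the 10 other glucose transporters tested, only Slc5a1, which encodes the sodium-driven transporter SGLT1 of the brush border, passed in either comparison. It fell from 46.5, 45.0 and 28.2 FPKM in Control to 12.9, 25.9 and 16.6 in IgG Ab (log2 -1.13 ± 0.28 SE, limma adjusted p = 0.034) and was 34.0, 40.5 and 42.3 in anti-S100a9 Ab (log2 1.12 ± 0.28 SE against IgG Ab, limma adjusted p = 0.026). Neither contrast overlapped, but the first call held in only 2 of the 9 leave-one-out fits and the second in 4.

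Hexokinase phosphorylates glucose and so keeps it in the cell. Hk1 (gene ID 15275, chromosome 10, 62268855 to 62379920), the housekeeping form, was 29.2, 31.6 and 30.2 FPKM in Control, 15.3, 27 and 29.5 in IgG Ab and 31.1, 33.1 and 29.4 in anti-S100a9 Ab. Apart from IgG Ab replicate 1 these values were alike, and Hk1 passed in no comparison (log2 -0.39 for IgG Ab against Control, limma adjusted p = 0.27, and -0.10, adjusted p = 0.64, without that sample).

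Hk2 (gene ID 15277, chromosome 6, 82725025 to 82774454), the inducible form known from muscle and tumors, was 17.4, 12.9 and 8.01 FPKM in Control, 29.2, 42.9 and 21.8 in IgG Ab and 17.5, 19.6 and 31.6 in anti-S100a9 Ab. Every AOM/DSS sample was above every Control sample, while both AOM/DSS groups overlapped. Hk2 rose 2.46-fold in IgG Ab (log2 1.30 ± 0.35 SE, limma adjusted p = 0.047). This value was close to the threshold. Of the 9 leave-one-out fits it held in 1, the fit without IgG Ab replicate 3, and over all alternatives the limma adjusted p ran from 0.046 to 0.11 while the log2 fold change stayed between 1.00 and 1.56. In anti-S100a9 Ab Hk2 was 1.81-fold the Control level (log2 0.86, 95% CI 0.06 to 1.65, limma adjusted p = 0.30), and the difference between the AOM/DSS groups was -0.44 (log2, 95% CI -1.24 to 0.35, limma adjusted p = 0.37).

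Hk2 accounted for 28.0% ± 7.98 (SD, n = 3) of the summed FPKM of Hk1, Hk2, Hk3 and Hkdc1 in Control, 54.9% ± 11.8 in IgG Ab and 40.3% ± 8.14 in anti-S100a9 Ab. The log2 ratio of Hk2 to Hk1 was -1.31 ± 0.58 in Control, 0.39 ± 0.72 in IgG Ab and -0.49 ± 0.52 in anti-S100a9 Ab (SD, n = 3). The IgG Ab and Control ratios did not overlap (difference 1.70), whereas the anti-S100a9 Ab ratios overlapped those of both other groups. With 3 mice a group, a two-sided exact permutation test cannot go below p = 0.1, which was reached here, and over the 27 ratio tests made the adjusted value was 0.245. Hk3, known from leukocytes, did not exceed 1.82 FPKM, and Hkdc1 did not exceed 0.905.

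Phosphofructokinase commits sugar to glycolysis. Pfkl (gene ID 18641, chromosome 10, 77986947 to 78009807), the liver form, was 56.2, 50.8 and 61.8 FPKM in Control, 38.0, 62.4 and 47.9 in IgG Ab and 43.5, 48.6 and 56.2 in anti-S100a9 Ab. Pfkp (gene ID 56421, chromosome 13, 6579874 to 6649060), the platelet form, was 20, 24.1 and 21.9 FPKM in Control, 12.1, 24.1 and 23.2 in IgG Ab and 27.8, 29.4 and 25 in anti-S100a9 Ab. All anti-S100a9 Ab values of Pfkp were above those of both other groups, and Pfkl overlapped throughout. The Pfkp difference between the AOM/DSS groups (log2 0.53, 95% CI -0.03 to 1.09, limma adjusted p = 0.15) missed the threshold and was 0.21 without IgG Ab replicate 1. Pfkl differed by -0.21 (log2, 95% CI -0.65 to 0.22) between IgG Ab and Control and by 0.02 (-0.41 to 0.46) between the AOM/DSS groups.

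Pfkl supplied 65.6% ± 4.22 of phosphofructokinase FPKM in Control, 67.6% ± 5.43 in IgG Ab and 59.4% ± 4.79 in anti-S100a9 Ab (SD, n = 3), and Pfkm, the muscle form, supplied no more than 10.4% in any sample. The makeup of this enzyme by gene thus moved little, unlike that of hexokinase. Pfkp matches 1 other annotated gene over up to 748 bases at 95% identity or more, so reads could be split between them.

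Pfkfb3 (gene ID 170768, chromosome 2, 11471430 to 11554071) encodes the kinase form that makes the strongest activator of phosphofructokinase and is known as inducible by inflammation and hypoxia. It was 4.32, 2.25 and 2.80 FPKM in Control, 7.62, 6.82 and 6.36 in IgG Ab and 5.39, 2.85 and 4.56 in anti-S100a9 Ab. Each IgG Ab sample was above all 6 others, and the remaining groups overlapped. Pfkfb3 rose 2.25-fold in IgG Ab over Control (log2 1.17 ± 0.29 SE, limma adjusted p = 0.037), a call that held in 3 of the 9 leave-one-out fits, in which the log2 fold change ran from 0.97 to 1.43. It was lost without any of the IgG Ab samples, Control replicates 2 or 3, or anti-S100a9 Ab replicate 3, with limma adjusted p of 0.095 without IgG Ab replicate 1 and 0.13 without Control replicate 2. Against IgG Ab, the anti-S100a9 Ab level was 0.603 times as high (log2 -0.73, 95% CI -1.40 to -0.06, limma adjusted p = 0.10), which missed the threshold in every alternative.

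The sum of the 4 Pfkfb genes was similar in the groups, at 14.4 ± 1.50 FPKM in Control, 15.7 ± 2.63 in IgG Ab and 15.6 ± 1.98 in anti-S100a9 Ab (SD, n = 3). Its makeup shifted: Pfkfb3 was 21.6% ± 6.54 of it in Control, 44.8% ± 7.22 in IgG Ab and 27.1% ± 6.73 in anti-S100a9 Ab. Pfkfb4 was the largest part in Control, at 55.7% ± 9.71, and made 36.2% ± 9.59 in IgG Ab. The log2 ratio of Pfkfb3 to Pfkfb2, the form of heart and kidney, was 0.32 ± 0.54 in Control, 1.76 ± 0.45 in IgG Ab and 0.02 ± 0.71 in anti-S100a9 Ab. Ratios in IgG Ab stood above both other groups without overlap, with the smallest exact permutation p that 3 against 3 allows, 0.1 (0.245 adjusted over 27 tests). Of the 3 other Pfkfb genes and Tigar, whose product breaks down the same activator, 0 of 4 passed in IgG Ab against Control (0 at an unadjusted p under 0.05). Pfkfb1, named after its values were seen, was lower in anti-S100a9 Ab than in IgG Ab at levels of at most 1.07 FPKM (log2 -1.18 ± 0.32 SE, limma adjusted p = 0.032), a call that held in 4 of the 9 leave-one-out fits and was lost without IgG Ab replicate 1 (limma adjusted p = 0.067).

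**Figure D2:**
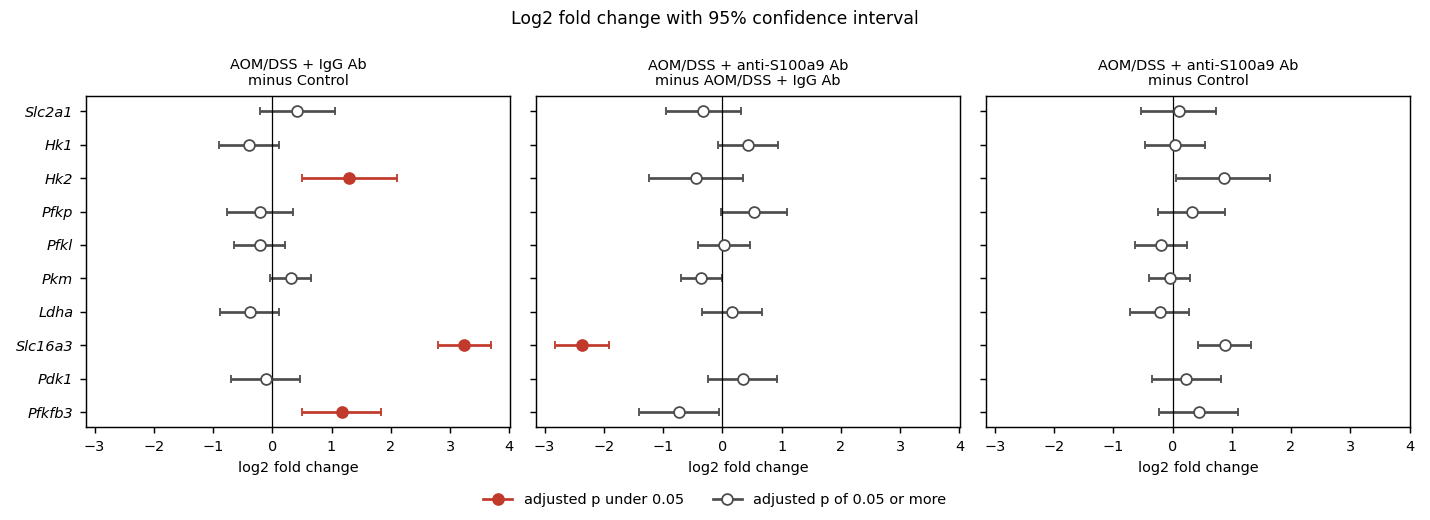
Log2 fold change of each of the 10 genes with its 95% confidence interval from limma in the 3 comparisons, filled red where the adjusted p is under 0.05. Slc16a3 at 3.24, Hk2 at 1.30 and Pfkfb3 at 1.17 are filled in the comparison of IgG Ab with Control, Slc16a3 alone at -2.37 in the comparison of the AOM/DSS groups, and none in the third.

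Pkm (gene ID 18746, chromosome 9, 59656576 to 59679372) encodes the pyruvate kinase of most tissues and, as its embryonic splice form, of tumors, and the files do not separate splice forms. It was 210, 206 and 204 FPKM in Control, 230, 249 and 294 in IgG Ab and 188, 222 and 192 in anti-S100a9 Ab. Values of all IgG Ab samples exceeded the 6 others, by a small margin. The 1.24-fold difference between IgG Ab and Control (log2 0.31, 95% CI -0.04 to 0.65, limma adjusted p = 0.21) and the 0.781-fold level in anti-S100a9 Ab against IgG Ab (log2 -0.36, 95% CI -0.70 to -0.01, limma adjusted p = 0.12) missed the threshold, with all samples and without IgG Ab replicate 1. Pkm stayed at 92.2% ± 0.361, 93.4% ± 1.03 and 92.0% ± 0.393 of pyruvate kinase FPKM in Control, IgG Ab and anti-S100a9 Ab (SD, n = 3), Pklr, the liver and red cell form, being the remainder.

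Ldha (gene ID 16828, chromosome 7, 46842274 to 46855627) encodes the lactate dehydrogenase subunit that favors the reduction of pyruvate to lactate. It was 257, 265 and 294 FPKM in Control, 151, 279 and 217 in IgG Ab and 222, 245 and 232 in anti-S100a9 Ab. The IgG Ab samples overlapped both other groups and held the lowest value of the series, and all anti-S100a9 Ab samples were below all Control samples. Neither difference passed the test: -0.38 for IgG Ab against Control (log2, 95% CI -0.88 to 0.12, limma adjusted p = 0.28) and -0.22 for anti-S100a9 Ab against Control (95% CI -0.72 to 0.28, limma adjusted p = 0.62). The test takes 1 spread for all 3 groups. The SD of Ldha was 64.3 FPKM in IgG Ab, 19.4 in Control and 11.5 in anti-S100a9 Ab. Ldha made up 97.6% ± 0.698, 97.6% ± 0.52 and 97.9% ± 0.507 of the FPKM of Ldha and Ldhb in the same order of groups (SD, n = 3), and Ldhb, the heart subunit, did not exceed 8.39 FPKM. Ldha matches 4 other annotated genes, Pkm 2, and Ldhb and Pklr 1 each, over at least 200 bases at 95% identity or more, so reads could be split between copies.

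Slc16a3 (gene ID 80879, chromosome 11, 120948484 to 120959000) encodes MCT4, the monocarboxylate transporter that exports lactate from strongly glycolytic cells. It was 1.95, 2.09 and 1.49 FPKM in Control, 18.9, 20.7 and 15.2 in IgG Ab and 3.14, 3.31 and 3.89 in anti-S100a9 Ab. No group overlapped another, and IgG Ab replicate 1, low for most of the other genes, was within its group here. Slc16a3 rose 9.48-fold in IgG Ab over Control (log2 3.24 ± 0.20 SE, 95% CI 2.80 to 3.69, limma adjusted p = 0.00025) and was 0.194 times as high in anti-S100a9 Ab as in IgG Ab (log2 -2.37 ± 0.20 SE, 95% CI -2.82 to -1.92, limma adjusted p = 0.001). Both calls held in all 21 alternatives, with limma adjusted p from 9.2e-05 to 0.002 and from 0.00043 to 0.0099. The anti-S100a9 Ab level was still 1.84-fold that of Control, higher in 3 of 3 samples (log2 0.88, 95% CI 0.43 to 1.32, unadjusted p = 0.0017 and adjusted p = 0.30 in limma), which failed the correction over all genes in every alternative.

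Slc16a1, which encodes MCT1, the transporter that takes up butyrate and lactate and is abundant in normal colonocytes, moved in the opposite direction. It was 44.1, 58.9 and 52.7 FPKM in Control, 10.6, 26.2 and 19.5 in IgG Ab and 38.6, 53.8 and 47.8 in anti-S100a9 Ab. All IgG Ab samples were below all others. It fell by 1.54 on the log2 scale in IgG Ab (SE 0.30, limma adjusted p = 0.015) and was higher by 1.39 in anti-S100a9 Ab than in IgG Ab (SE 0.30, limma adjusted p = 0.019). The first call was lost without Control replicate 2 and the second without anti-S100a9 Ab replicate 2 or 3, the adjusted p reaching 0.063 and 0.07.

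Slc16a3 made up 3.40% ± 0.721 of the FPKM of the monocarboxylate transporters Slc16a1, Slc16a3, Slc16a7 and Slc16a8 in Control, 49.5% ± 11.4 in IgG Ab and 6.76% ± 0.966 in anti-S100a9 Ab (SD, n = 3). The sum of the 4 was lower in IgG Ab, at 37.9 ± 8.92 FPKM, than in Control at 54.7 ± 7.58 and anti-S100a9 Ab at 51.6 ± 7.78, although the samples overlapped. The log2 ratio of Slc16a3 to Slc16a1 was -4.75 ± 0.31 in Control, 0.04 ± 0.68 in IgG Ab and -3.72 ± 0.23 in anti-S100a9 Ab, with no overlap between any groups and the smallest exact permutation p that the design allows, 0.1, in each of the 3 comparisons (0.245 adjusted over 27 tests). A ratio within a sample does not depend on how that sample was scaled. The difference between IgG Ab and Control, 4.79, was the largest of the 27, and that between the AOM/DSS groups was -3.76.

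**Figure D3:**
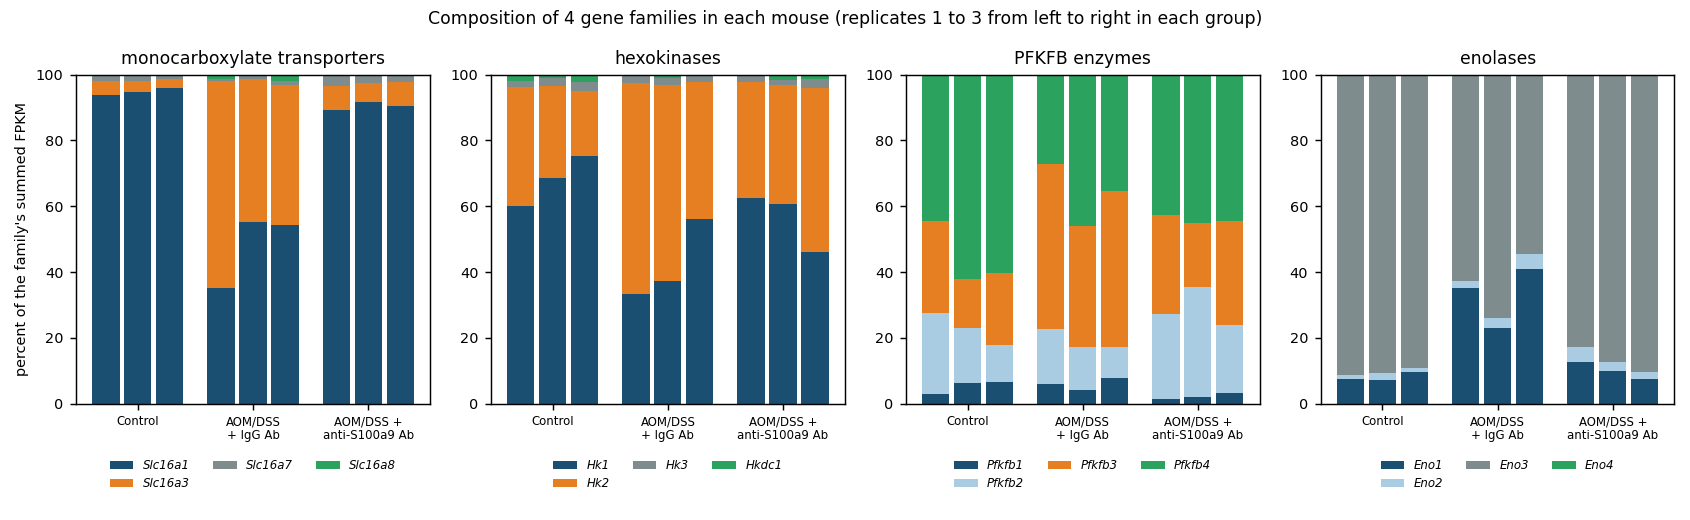
Stacked bars of the percent of a family's summed FPKM contributed by each gene in each mouse, for the monocarboxylate transporters, 4 hexokinases, the Pfkfb enzymes and the enolases (replicates 1 to 3 from left to right in each group; Slc16a3, Hk2 and Pfkfb3 in orange). Slc16a3 takes 42.4% to 62.7% of its family in the IgG Ab mice against at most 7.37% in the other mice, and Eno3 takes 54.4% to 73.9% against at least 82.6%.

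The genes with the pattern most like Slc16a3 over the 9 samples were Cxcl2 (r = 0.983), a neutrophil-attracting chemokine, Atg9b (0.980), an autophagy gene, Il1rl1 (0.978), the receptor of interleukin-33, Apoc4 (0.977), an apolipoprotein, and Mfsd2a (0.977), a lipid transporter. The FPKM values of Cxcl2 were 0 throughout Control, 5.56, 3.16 and 5.42 in IgG Ab, and at most 0.194 in anti-S100a9 Ab. The correlations are descriptions over samples that fall into 3 groups. Of 10 neutrophil markers tested, 6 rose in IgG Ab over Control and 5 fell with anti-S100a9 Ab. All 11 listed neutrophil markers summed to 134, 457 and 695 FPKM in IgG Ab replicates 1, 2 and 3, where Slc16a3 was 18.9, 20.7 and 15.2. The sum was 90.9 to 121 in Control and 102 to 181 in anti-S100a9 Ab. Most of it in Control was a single marker, Ly6g, at 88.8 to 117 FPKM there and 26.1, 96.0 and 95.2 in IgG Ab. The sum is therefore a rough measure of these cells. Of 7 fibroblast markers 4 rose and 3 then fell, and of 6 squamous markers 5 rose and 5 fell, whereas of 11 monocyte and macrophage markers 0 passed in either comparison, with 0 at an unadjusted p under 0.05 in the first and 1 in the second. The part of these cells in the Slc16a3 level was not tested.

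Pdk1 (gene ID 228026, chromosome 2, 71873215 to 71903858) encodes a kinase that shuts off pyruvate dehydrogenase and so keeps pyruvate out of the mitochondria. It was 9.29, 8.27 and 6.18 FPKM in Control, 5.18, 9.06 and 8.05 in IgG Ab and 7.91, 11.4 and 8.55 in anti-S100a9 Ab. The groups overlapped, and the difference was -0.11 for IgG Ab against Control (log2, 95% CI -0.69 to 0.47, limma adjusted p = 0.81) and 0.34 for anti-S100a9 Ab against IgG Ab (95% CI -0.24 to 0.92, limma adjusted p = 0.34). Of 13 other genes of pyruvate entry into mitochondria, only another kinase of the family passed in either of these comparisons. This kinase, Pdk4, known from fasting and fatty acid oxidation, went from 0.683, 1.61 and 0.816 FPKM in Control to 41.4, 4.66 and 5.98 in IgG Ab and to 2.26, 2.26 and 1.31 in anti-S100a9 Ab. Again IgG Ab stood above all others, replicate 1 by far. Pdk4 rose by 3.31 on the log2 scale (SE 0.74, limma adjusted p = 0.025; 2.33 without IgG Ab replicate 1, the lowest of the leave-one-out fits) and fell by 2.42 with anti-S100a9 Ab (limma adjusted p = 0.048, up to 0.13 in the alternatives). Without IgG Ab replicate 1 the second difference was -1.44 (log2) and missed the threshold (limma adjusted p = 0.054), and the call held in 1 of the 9 leave-one-out fits.

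Among the 16 other glycolytic enzymes tested, 2 rose and 1 fell in IgG Ab against Control, with a median log2 fold change of 0.10. The gene that fell was Eno3, the enolase of muscle (log2 -1.98 ± 0.32 SE, limma adjusted p = 0.0077). Eno3 was 202, 222 and 257 FPKM in Control, 47.1, 93.4 and 43.1 in IgG Ab and 102, 159 and 186 in anti-S100a9 Ab. This level of Eno3 stood above that of Eno1, the form of most tissues, in every sample, and Eno1 matches 3 other genes, so its own level is uncertain. Smooth muscle markers were lower in IgG Ab for 8 of 8 genes, of which 0 passed and 2 had an unadjusted p under 0.05. Their sum was 546, 1130 and 3330 FPKM in IgG Ab replicates 1, 2 and 3, against 1880 to 2970 in Control. IgG Ab replicate 3 thus had the highest sum of these samples and the lowest Eno3. Skeletal muscle markers did not exceed 13 FPKM in sum. The part of muscle in the Eno3 values was not tested.

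The genes that rose were Bpgm (log2 0.89 ± 0.16 SE, limma adjusted p = 0.011) and Minpp1 (log2 0.71 ± 0.17 SE, limma adjusted p = 0.036), both acting on bisphosphoglycerate. In anti-S100a9 Ab against IgG Ab, Eno3 (log2 1.33) was higher and Bpgm (-1.0), Eno1 (-0.83) and Minpp1 (-0.77) were lower, with limma adjusted p between 0.0082 and 0.025. Leaving out samples in turn kept the call of Eno3 against Control in all 9 fits, and that of Bpgm in 8, being lost without Control replicate 2 (limma adjusted p = 0.053), whereas that of Minpp1 held in 3. Between the AOM/DSS groups the call of Bpgm held in 9 fits, of Minpp1 in 6 and of Eno1 and Eno3 in 5 each, that of Eno3 being lost without IgG Ab replicate 1 (limma adjusted p = 0.068).

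Of the remaining enzymes, Gapdh, Gapdhs, Pgk2, Pgam2, Eno4 and Hkdc1 were listed under 1 FPKM in all samples. For Gapdh, which nearly every cell expresses, at most 0.755 FPKM was listed, and 78 other annotated genes match it over at least 200 bases at 95% identity or more. Its values therefore say little of its expression.

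**Figure D4:**
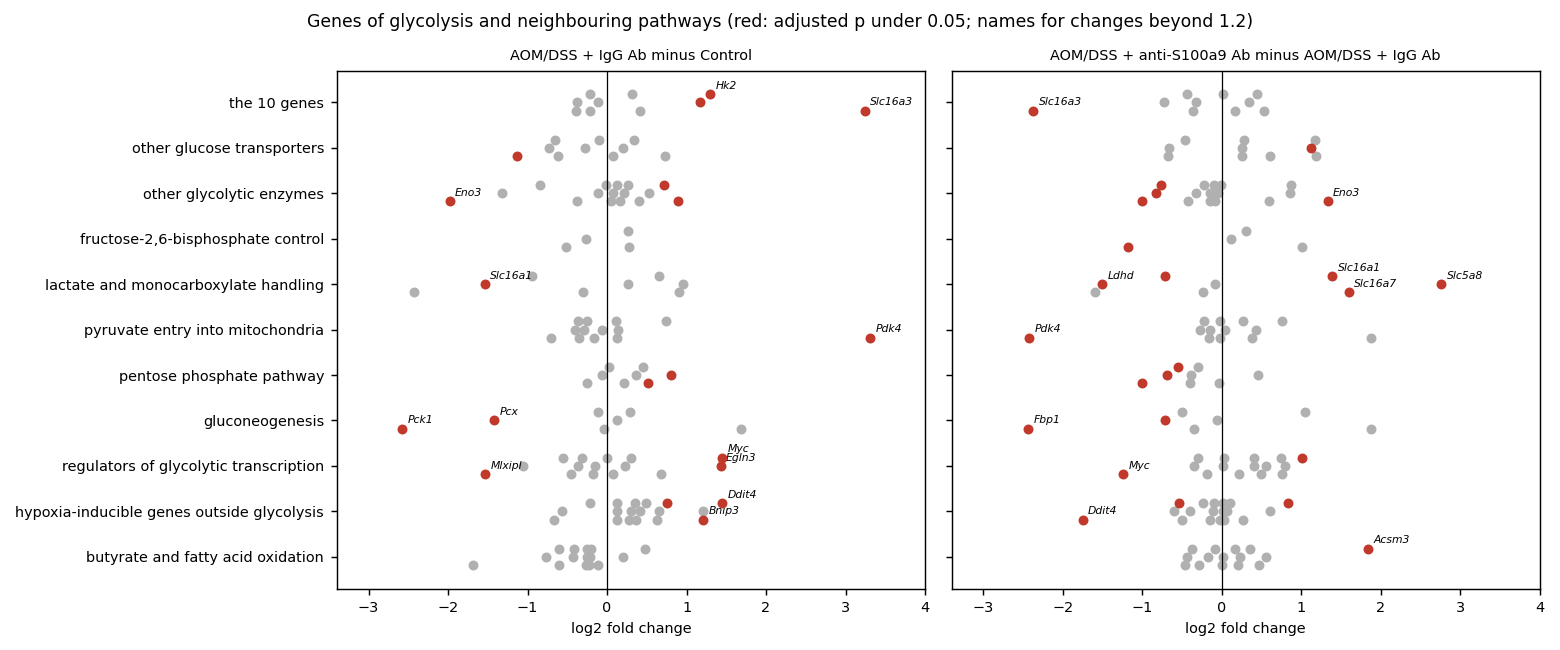
Log2 fold changes of the 10 genes and of the genes of 10 related lists (1 point a gene, red where limma's adjusted p is under 0.05) for IgG Ab against Control and for anti-S100a9 Ab against IgG Ab. Points lie on both sides of 0 in nearly every list, with Slc16a3 at 3.24 and Pdk4 at 3.31 farthest to the right on the left panel.

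Among regulators, Hif1a, the oxygen-sensitive factor, was 25.6, 18.5 and 8.74 FPKM in Control, 25.8, 30.7 and 21.7 in IgG Ab and 34.6, 37.4 and 31.1 in anti-S100a9 Ab, and passed in no comparison. Its highest values were in anti-S100a9 Ab. Egln3, a prolyl hydroxylase and target of the hypoxia-inducible factor, rose by 1.43 on the log2 scale in IgG Ab over Control (SE 0.24, limma adjusted p = 0.0082) and did not pass between the AOM/DSS groups (-0.35, limma adjusted p = 0.30). Myc, an activator of many glycolytic genes, was 11.8, 8.59 and 11.5 FPKM in Control, 44.3, 24.4 and 22.6 in IgG Ab and 13.3, 11.4 and 12.2 in anti-S100a9 Ab. It rose by 1.45 in IgG Ab (SE 0.25, limma adjusted p = 0.01) and fell by 1.24 in anti-S100a9 Ab (SE 0.25, limma adjusted p = 0.016). Of the 15 regulators tested, 2 rose and 1 fell in IgG Ab, and 1 was higher and 1 lower in anti-S100a9 Ab than in IgG Ab. Mlxipl, the carbohydrate-responsive factor ChREBP, fell (-1.53, limma adjusted p = 0.0054) and was higher with anti-S100a9 Ab (1.01, limma adjusted p = 0.021). The calls of Egln3, Myc and Mlxipl against Control held in all 9 leave-one-out fits, and those between the AOM/DSS groups in 7 for Myc and 5 for Mlxipl.

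Of 18 hypoxia-inducible genes outside glycolysis, 3 rose in IgG Ab and 0 fell, with a median of 0.36 against 0.09 for all genes. Those that rose were the mitophagy gene Bnip3 (1.21, limma adjusted p = 0.011), the stress gene Ddit4 (1.45, limma adjusted p = 0.028) and the repressor Bhlhe40 (0.76, limma adjusted p = 0.023). In anti-S100a9 Ab against IgG Ab the list had 1 gene higher, P4ha1, a collagen prolyl hydroxylase (0.83, limma adjusted p = 0.042), and 2 lower, Ddit4 (-1.75, limma adjusted p = 0.014) and Bhlhe40 (-0.54, limma adjusted p = 0.046). Only the Bnip3 and Ddit4 calls, the latter between the AOM/DSS groups, held in at least 8 of the 9 leave-one-out fits.

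Of 8 genes of lactate and monocarboxylate handling beside Slc16a3, only Slc16a1 passed in IgG Ab against Control. In anti-S100a9 Ab against IgG Ab, Slc5a8, the sodium-driven butyrate and lactate transporter (2.76, limma adjusted p = 0.034), Slc16a7 (1.60, limma adjusted p = 0.022) and Slc16a1 were higher. Ldhd, which oxidizes D-lactate (-1.51, limma adjusted p = 0.0093), and Bsg, the chaperone that carries MCT1 and MCT4 to the membrane (-0.71, limma adjusted p = 0.026), were lower. Slc5a8 was 38.4 to 49.4 FPKM in anti-S100a9 Ab and 1.84, 23.5 and 5.84 in IgG Ab, and its call held in 3 of the 9 leave-one-out fits. Without IgG Ab replicate 1, Slc5a8 was higher by 1.89 (limma adjusted p = 0.063), and the call of Bsg was lost too (limma adjusted p = 0.059).

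The pentose phosphate pathway had 2 of 8 genes higher in IgG Ab than in Control, H6pd (0.81, limma adjusted p = 0.036) and G6pdx (0.52, limma adjusted p = 0.049), and 3 of 8 lower in anti-S100a9 Ab than in IgG Ab, Pgls (-1.01), Taldo1 (-0.69) and Pgd (-0.55), with limma adjusted p from 0.026 to 0.039. These calls were not stable: those of H6pd and G6pdx each held in 1 of the 9 leave-one-out fits, of Pgls in 4, of Taldo1 in 3 and of Pgd in 5. Without IgG Ab replicate 1 the limma adjusted p was 0.12 for G6pdx, 0.051 for Pgls and 0.076 for Taldo1.

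Gluconeogenesis had 2 of 7 lower in IgG Ab, Pck1 (-2.58, limma adjusted p = 0.049) and Pcx (-1.42, limma adjusted p = 0.029), and 2 of 7 lower in anti-S100a9 Ab than in IgG Ab, Fbp1 (-2.44, limma adjusted p = 0.023) and G6pc3, neither of which had passed against Control. Without IgG Ab replicate 1, the difference of Pck1 was -1.57 (limma adjusted p = 0.0052), and the calls of Fbp1 and G6pc3 were lost (limma adjusted p = 0.059 and 0.054). The call of Pck1 held in 2 of the 9 leave-one-out fits, of Pcx in 5, of Fbp1 in 6 and of G6pc3 in 4.

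Of 15 genes of butyrate and fatty acid oxidation, 0 passed in IgG Ab against Control by limma. An unadjusted p under 0.05 was found for 6 of the 15, against 4507 of all 15278 genes. The median log2 fold change of the list was -0.25 against 0.09 for all genes. Only 2 of the 15 were above 0, against 8801 of all 15278 genes. The acyl-CoA synthetase Acsm3 alone was higher in anti-S100a9 Ab than in IgG Ab (1.84, limma adjusted p = 0.037). Its call held in 4 of the 9 leave-one-out fits (1.19 without IgG Ab replicate 1, limma adjusted p = 0.049). Between anti-S100a9 Ab and Control, 0 genes of these 10 lists passed. Of the 114 tested, 17 had an unadjusted p under 0.05, as did 2439 of all 15278 genes. In IgG Ab against Control, 10 of the 114 passed as higher and 6 as lower, beside 8.18% and 3.01% of all genes. In anti-S100a9 Ab against IgG Ab, 8 passed as higher and 15 as lower, beside 6.72% and 14.4%. The counts of the single lists are to be read beside these shares.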

How the data were processed

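Colon RNA of 9 mice was analyzed, 3 in each of 3 groups taken from the sample labels. The authors deposited 1 file per mouse with decimal values for 21544 gene symbol entries. The unit was read from the values as FPKM, since the files do not name it. The submitters' processing notes name TopHat, Cufflinks, HTSeq, DESeq and the build GRCm38, without versions or settings. Depth is unknown in absolute terms, and precision comes from the 3 mice a group.

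From the deposited FPKM values, 46 repeats of a symbol were summed, and log2(FPKM + 0.1) was fitted for 15278 genes (0.1 FPKM or more in 3 samples or more), with limma 3.58.1 in R 4.3.3 (group means of all 9 samples, intensity trend, 8.87 degrees of freedom). Adjusted p-values are Benjamini-Hochberg values over these genes, and folds are on the log2(FPKM + 0.1) scale, on which low values change less than in truth. DESeq needs counts and was not used. The p-values measure the spread between these mice. In 1 simulation of the comparison of AOM/DSS + IgG Ab with Control on 15278 genes, the noise was normal and independent and 200 genes were changed. There, 27% of genes changed by 1 (log2) and 89% of those changed by 3 were recovered. Recovery depends on how many genes change, so these shares need not hold for the data.

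Ratios were compared with two-sided exact permutation tests. Near copies were sought with blastn 2.17.0 in GENCODE M21 transcripts. Promoters and gene positions are from RefSeq (GRCm38.p6), and all 10 genes matched. The 10 genes and the lists of related and marker genes were chosen with earlier results of these data known. Some genes of the related lists are not reported here and were left out of the counts of those lists. Named genes of each related list were those with the largest folds, at most 3 in each direction, among genes that passed and averaged 1 FPKM or more in a group, besides Hif1a, Myc, Hk3, Hkdc1, the partners in the ratios, and glycolytic enzymes listed under 1 FPKM throughout. Pfkfb1, Pfkfb4, Tigar and the marker Ly6g are outside this rule and were named after their values were seen. Alternatives covered the pseudocount, the filter, the scaling, the trend, robust moderation, the replicate block, the groups in the fit and leaving out each sample. Figures were drawn with matplotlib 3.10.9.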

Additional observations from a re-analysis of the deposited data

How the results depend on the processing

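Slc16a3 passed in every alternative, as higher in IgG Ab than in Control and as lower in anti-S100a9 Ab than in IgG Ab. The number of the 10 genes higher in IgG Ab than in Control, 3, became 1 under upper-quartile scaling and 1 with only the 2 groups compared in the fit. It ranged from 1 to 2 when 1 sample was left out. The number lower in anti-S100a9 Ab than in IgG Ab ranged from 1 to 2, the added gene being Slc2a1 without IgG Ab replicate 1. The cause of these changes was not tested. Fitting only the 2 groups also changed the number of all genes lower in IgG Ab from 460 to 109 and the number higher from 1250 to 518.

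Values below the threshold in both settings changed sign as follows. Quantile normalization gave 0.24 for Pkm and 0.08 for Ldha (log2, anti-S100a9 Ab against Control). Leaving out 1 sample gave ranges of -0.39 to 0.11 for Pfkp and -0.27 to 0.13 for Pdk1 (IgG Ab against Control), -0.15 to 0.21 for Pfkl and -0.08 to 0.37 for Ldha (anti-S100a9 Ab against IgG Ab), and 0.00 to 0.08 for Hk1 (anti-S100a9 Ab against Control). Of 630 alternative fold changes, 595 kept direction and side of the threshold. Of 243 alternative log2 ratios, 1 moved by more than the spread between mice, that of Slc16a3 over Slc16a1 with a pseudocount of 1.

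The median of all genes for IgG Ab against Control was 0.09, and it was -0.02, -0.03 and -0.04 under median-of-ratios scaling, quantile normalization and upper-quartile scaling. Samples share replicate numbers across groups, but the deviations of 9 same-numbered pairs correlated between -0.187 and 0.249, and only 4 had their best match in their own number, so the numbers were not read as pairs. With the replicate block, 2 genes were higher in IgG Ab than in Control and 1 was lower with anti-S100a9 Ab. Limits are the 3 mice a group, the unknown depth and the mixed cells of the tissue.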
